A study of Mus musculus with 12 samples.

Results

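The NMDA and AMPA receptor subunit genes were examined in medulloblastomas and cerebella of *Brca2* and *Trp53* mutant mice. The 10 genes are *Grin1*, *Grin2a*, *Grin2b*, *Grin2c*, *Grin2d*, *Grin3a* and *Gria1* to *Gria4*, chosen by symbol from the 24091 genes of the expression table, and all 10 passed the expression filter in every comparison. The 12 samples were bulk RNA sequencing of 4 groups of 3 mouse tissues. The medulloblastomas were taken from GB344, GB359 and GB370, labelled Brca2-mut;Trp53-mut (*Brca2*Δex3-4; *Trp53*-/-), and adjacent cerebellum, labelled as normal, came from the same 3 animals. Control cerebella without tumor, at postnatal day 90, were labelled Brca2-mut;Trp53-WT (*Brca2*Δex3-4; *Trp53*+/+, from GB361, GB508 and GB512) or Brca2-WT;Trp53-mut (*Brca2*WT; *Trp53*-/-, from GB517, GB519 and GB520). The *Brca2* allele has floxed exons (3 and 4) that Cre under the human *GFAP* promoter removes in the developing central nervous system, whereas the *Trp53* allele, with exons 2 to 6 replaced by a neo cassette, is inactive in every cell. The mice were of mixed strain, with the Cre transgene from FVB mice, and the controls are described as matched in age to the tumors, while the age of each tumor mouse was not used here.

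Both receptor families are glutamate-gated cation channels built from subunits encoded by separate genes. NMDA receptors contain the obligatory subunit GluN1 (*Grin1*) with GluN2 (*Grin2a* to *Grin2d*) or GluN3 (*Grin3a*) subunits. Granule cell progenitors and young granule neurons use GluN2B, and mature granule neurons of the cerebellum replace it with GluN2A and GluN2C, a switch used to date their maturation. GluN2D and GluN3A are also best known from early postnatal brain, although GluN2D persists in Golgi cells. AMPA receptors are assembled from GluA1 to GluA4 (*Gria1* to *Gria4*). Granule neurons mainly use GluA2 and GluA4, Purkinje cells GluA2 and GluA3, and Bergmann glia GluA1 and GluA4.

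The AMPA receptor subunits share a pore position, the Q/R site, which is shown here because the comparisons below turn on which subunit contributes most of the transcript. The site is a glutamine codon in the genome. In *Gria2* it is recoded to arginine by RNA editing, mainly by ADAR2 (*Adarb1*), which makes GluA2-containing receptors almost impermeable to calcium. The coding sequences are given 5′ to 3′ from GENCODE M21 transcripts (GRCm38), with the Q/R codon in capitals.
Gria1, chr11:57243073-57243117, plus strand, exon 11: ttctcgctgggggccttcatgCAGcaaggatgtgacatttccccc
Gria2, chr3:80706890-80706934, minus strand, exon 11: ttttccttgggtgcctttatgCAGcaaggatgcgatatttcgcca
Gria3, chrX:41610244-41610288, plus strand, exon 11: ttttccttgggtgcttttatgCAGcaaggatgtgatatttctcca
Gria4, chr9:4464116-4464160, minus strand, exon 12: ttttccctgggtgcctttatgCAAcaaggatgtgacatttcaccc
All 4 genes carry a glutamine codon in this reference, and the deposited values count transcripts without showing whether the site was edited.

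Values are in TPM, a transcript abundance scaled for transcript length and sample total, so genes can be compared within a sample. The number of reads behind each value is unknown. *Trp53* read 33.1 to 37.2 TPM in the libraries labelled *Trp53*+/+, 47.1 to 49.4 in those labelled *Trp53*-/-, 66.1 to 85.0 in adjacent cerebella and 124 to 130.5 in tumors, so the gene total, which includes exons outside the replaced part, was highest where the label is null and does not check the label. *Brca2* read 3.396 to 3.79 TPM in the *Brca2*Δex3-4; *Trp53*+/+ libraries and 3.24 to 4.399 in the *Brca2*WT; *Trp53*-/- libraries, a total that likewise does not show the loss of exons. The granule progenitor transcription factor *Atoh1* was between 0 and 0.212 TPM in the 6 controls, between 119 and 319 in tumors, and 59.4, 50.5 and 4.997 in the adjacent cerebella of GB344, GB359 and GB370, so none of the adjacent samples was free of it. Choroid plexus markers summed to between 3942 and 5158 TPM in the libraries labelled *Brca2*WT; *Trp53*-/- and to between 17.6 and 872 in the other control libraries.

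Tumors were compared with the 6 control cerebella to ask how the glutamate receptor genes differ between tumor and mature tissue. Of the 10 genes, 8 fell and 0 rose, where 21.5% of the 16241 genes tested were called lower and 14.4% higher. A gene was called where limma gave an adjusted p under 0.01 and the groups differed by 1 or more on the log2(TPM + 1) scale, which understates the change of genes with low TPM. Among the *Grin* genes, *Grin2c* (log2 fold change -3.78), *Grin2a* (-3.68) and *Grin1* (-3.59) fell most and by similar amounts. *Gria1* fell most among the *Gria* genes, and *Grin2b* and *Grin3a* were not called. In bulk tissue, fewer cells of a type and less RNA per cell cannot be told apart. For 9 of the 10 genes the 3 tumors lay below all 6 controls, as they did for 35.7% of all genes tested. The median log2 fold change of the 10 genes was -2.22, against -0.11 over all genes tested.

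**Figure D1:**
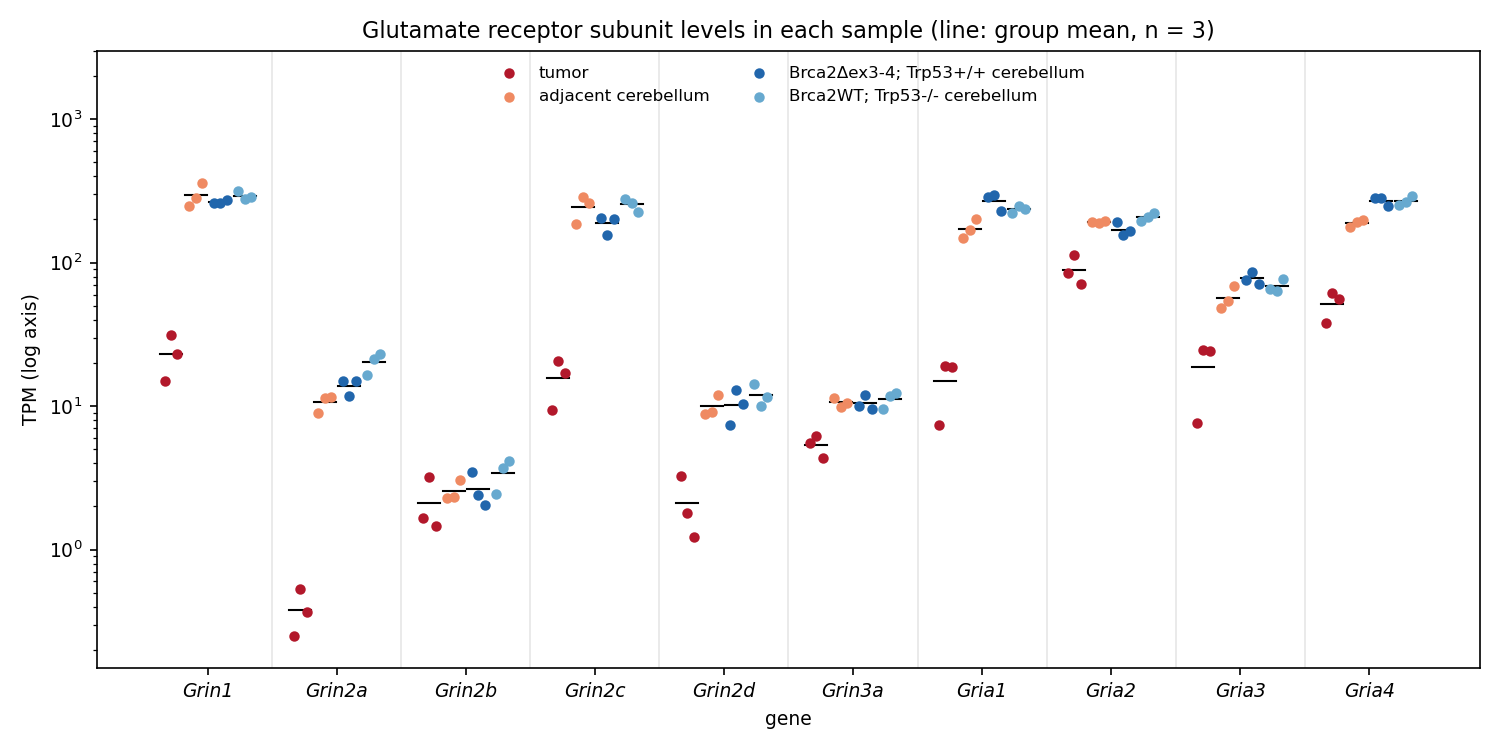
TPM of the 10 subunit genes in each of the 12 samples on a log axis, with points colored by group and a line at each group mean (n = 3). The tumor points lie below every other point for 9 genes, while those of *Grin2b*, at 1.47 to 3.18 TPM, mix with the control points at 2.05 to 4.13.

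*Grin1* (chr2:25291177-25319187) encodes the subunit that every NMDA receptor needs. It read 15.0, 31.6 and 23.1 TPM in the tumors of GB344, GB359 and GB370, and had a lowest value of 260.0, a median of 275 and a highest value of 317 in the controls. The groups were far apart, with the highest tumor well under the lowest control. *Grin1* fell by 3.59 on the log2 scale (SE 0.18; limma adjusted p = 5.70e-08), and its mean of 23.2 ± 8.31 TPM (SD, n = 3) stood against a control mean of 279 ± 21.2 (SD, n = 6), a 12.04-fold difference. An antisense gene, *Grin1os*, shares 1307 of the 9700 exonic bases of *Grin1* in the GENCODE annotation. Its mean was 2.35 TPM in tumors and 22.9 in controls (log2 fold change -2.87), and since the library kit does not mark strand, reads from the shared bases cannot be told apart.

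*Grin2c* (chr11:115249169-115267297) and *Grin2a* (chr16:9567901-9996083) encode the GluN2 subunits of mature granule neurons. *Grin2c* read 9.33, 20.7 and 16.9 TPM in the 3 tumors and between 156 and 279 in the controls, with a median of 215. Its lowest and highest tumor differed, but neither approached a control, and the gene fell by 3.78 on the log2 scale (SE 0.24; limma adjusted p = 2.17e-07). *Grin2a* read 0.249, 0.531 and 0.365 TPM in the tumors and between 11.7 and 23.0 in the controls, with a median of 15.7. All 3 tumors were under 1 TPM, the lowest level of any of the 10 genes in any tissue. *Grin2a* fell by 3.68 on the log2(TPM + 1) scale (SE 0.20; limma adjusted p = 8.30e-08), and its mean TPM was 44.7-fold higher in controls than in tumors, against 14.2-fold for *Grin2c*.

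The subunits of immature neurons differed among themselves. *Grin2b* (chr6:135713221-136173615) read 1.66, 3.18 and 1.47 TPM in the tumors. In the controls its lowest value was 2.05, its median 2.96 and its highest 4.13 TPM. The tumor of GB359 lay inside the control range and the other tumors just below it. The log2 fold change of -0.39 (SE 0.22) did not pass the test (limma adjusted p = 0.138), which leaves a moderate fall possible and does not show that the levels were equal. With the tumor of GB359 left out, the estimate was -0.63 (adjusted p = 0.0292), still short of both thresholds for a call.

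*Grin2d* (chr7:45831883-45871194), a subunit of young neurons that persists in Golgi cells, fell. It read 3.28, 1.79 and 1.22 TPM in the tumors and between 7.37 and 14.2 in the controls, with a median of 10.99. The tumors lay below the controls, with that of GB344 the highest of the 3. Its log2 fold change was -1.996 (SE 0.23; limma adjusted p = 2.32e-05). In the annotation an antisense gene, *Gm45441*, overlaps 643 of the 6658 exonic bases of *Grin2d*.

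*Grin3a* (chr4:49661611-49846023), whose product lowers calcium entry through NMDA receptors, was 5.53, 6.17 and 4.34 TPM in the tumors and between 9.49 and 12.4 in the controls, with a median of 10.9. The groups did not overlap. The log2 fold change of -0.90 (SE 0.14) had a limma adjusted p of 0.000164 but was smaller than the fold change required for a call. Of the 3 subunits of immature neurons, 1 was thus called lower (2 with a pseudocount of 0.1 or 0.01, which brought *Grin3a* to -1.01 or -1.03), and of the 2 mature GluN2 subunits, both were.

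The differing changes left the tumors with another GluN2 composition. Of the summed TPM of *Grin2a* to *Grin2d*, *Grin2b* made up 11.5%, 12.1% and 7.35% in the tumors of GB344, GB359 and GB370, and between 0.785% and 1.56% in the controls. Every tumor share was above every control share, although the *Grin2b* level itself was not higher in tumors. *Grin2b* and *Grin2d* together made up 22.2% ± 10.7 (SD, n = 3) in tumors and 5.74% ± 1.39 (SD, n = 6) in controls. *Grin2c* remained the most abundant GluN2 transcript in each tumor, with 64.3%, 79.0% and 84.7%, all below the control range of 85.2% to 89.4%. *Grin2d* gave 22.6% in the tumor of GB344 and 6.84% and 6.11% in the other tumors.

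The order of *Grin2b* and *Grin2a* was opposite in tumor and in mature tissue. The log2 ratio of *Grin2b* to *Grin2a* TPM was 2.74, 2.58 and 2.01 in the tumors of GB344, GB359 and GB370, and between -2.87 and -2.11 in the controls. Every tumor held more *Grin2b* than *Grin2a* and every control less. In tumors this ratio rests on low values, 0.249 to 0.531 TPM for *Grin2a* and 1.47 to 3.18 for *Grin2b*. The log2 ratio of *Grin2b* to *Grin2c* was -2.91 ± 0.55 (SD, n = 3) in tumors and -6.21 ± 0.43 (SD, n = 6) in controls. The log2 ratio of the GluN2 sum to *Grin1* was -0.17 ± 0.12 in tumors and -0.16 ± 0.21 in controls (SD, n = 3 and 6). These shares and ratios are descriptions without a test.

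**Figure D2:**
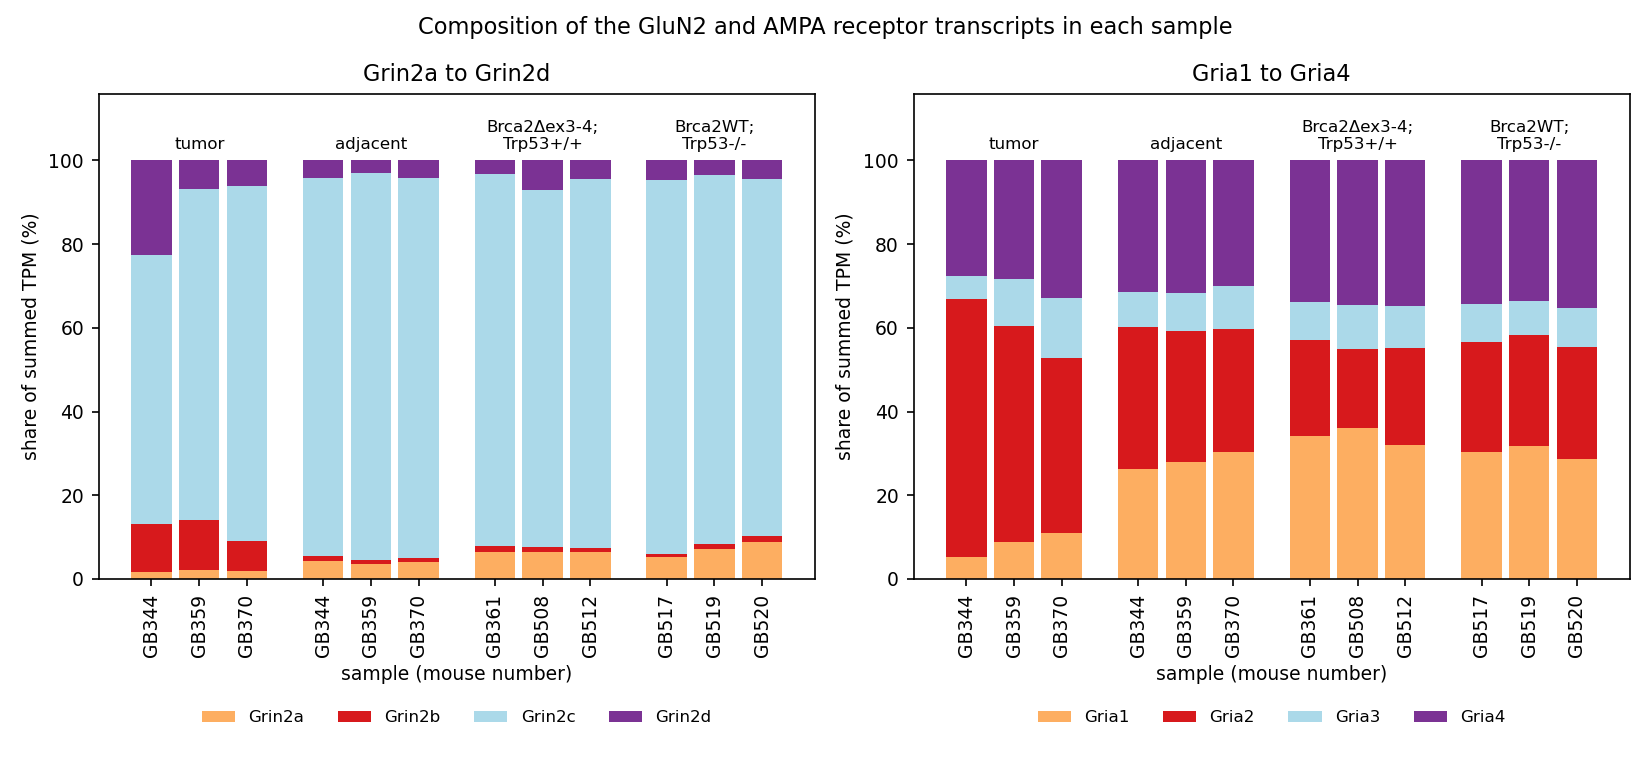
Share of each gene in the summed TPM of *Grin2a* to *Grin2d* (left) and of *Gria1* to *Gria4* (right), in percent, with 1 bar per sample grouped by tissue. In tumors *Grin2b* takes 7.35% to 12.1% and *Gria2* 41.7% to 61.6%, against at most 1.56% and 26.9% in controls.

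Among the AMPA receptor genes, *Gria1* (chr11:57011571-57330244) fell most. It read 7.40, 19.1 and 18.7 TPM in the tumors of GB344, GB359 and GB370 and between 222 and 295 in the controls, with a median of 243. The tumor of GB344 had less of it than the other tumors, and all were far below the controls. The log2 fold change was -4.08 (SE 0.25; limma adjusted p = 1.84e-07). Bergmann glia, which use GluA1, were also marked by lower transcripts: 6 of the 7 glial markers fell, *Gfap* did not pass the test (log2 fold change -0.20), and their sum was 322 to 555 TPM in tumors and 1992 to 2510 in controls. All 6 Purkinje cell markers and all 6 interneuron markers fell too, while the 6 granule progenitor markers rose. Purkinje cell markers averaged a sum of 179 TPM in tumors and 5727 in controls, and interneuron markers 137 and 2173. The part of these cell types in the *Gria1* result was not tested.

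*Gria4* (chr9:4417893-4796234), a subunit of granule neurons and glia, read 38.1, 61.5 and 55.5 TPM in the tumors and between 248 and 291 in the controls, with a median of 272. It fell by 2.39 on the log2 scale (SE 0.13; limma adjusted p = 1.05e-07). *Gria3* (chrX:41400819-41678601), a Purkinje cell subunit, read 7.67, 24.4 and 24.3 TPM in the tumors and between 63.5 and 86.7 in the controls, with a median of 73.9. For both genes GB344 was the lowest tumor, and the 3 tumors stayed below the controls. The log2 fold change of *Gria3* was -2.06 (SE 0.30; limma adjusted p = 0.000122) with all tumors and -1.54 without that of GB344.

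*Gria2* (chr3:80681450-80804227), whose edited product limits calcium entry, changed least of the *Gria* genes. It read 85.2, 112 and 70.6 TPM in the tumors and between 155 and 222 in the controls, with a median of 193. It was the most abundant of the 10 transcripts in each tumor and did not reach the level of any control. It fell by 1.09 on the log2 scale (SE 0.15; limma adjusted p = 9.37e-05), close to the required fold change, and scaling by the median of ratios (-0.97), quantile normalization (-0.92) or use of the libraries labelled *Brca2*Δex3-4; *Trp53*+/+ as the only controls (-0.94) put it below that limit. Leaving out the tumor of GB370 also did (-0.93).

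*Gria2* therefore made up 61.6%, 51.7% and 41.7% of the summed AMPA receptor transcript in the tumors of GB344, GB359 and GB370, and between 18.9% and 26.9% in the controls. The share of *Gria1* was 8.40% ± 2.88 (SD, n = 3) in tumors and 32.2% ± 2.67 (SD, n = 6) in controls. The groups were fully apart for both genes. *Gria4* gave 29.5% ± 2.86 in tumors and 34.4% ± 0.615 in controls, and *Gria3* gave 10.4% ± 4.49 and 9.34% ± 0.873 (SD, n = 3 and 6). The log2 ratio of *Gria2* to *Gria1* was 3.53, 2.55 and 1.92 in the tumors and between -0.93 and -0.09 in the controls, so that every control held less *Gria2* than *Gria1* and every tumor more. The adjacent cerebella of GB344, GB359 and GB370 lay between, at 0.358, 0.165 and -0.038.

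**Figure D3:**
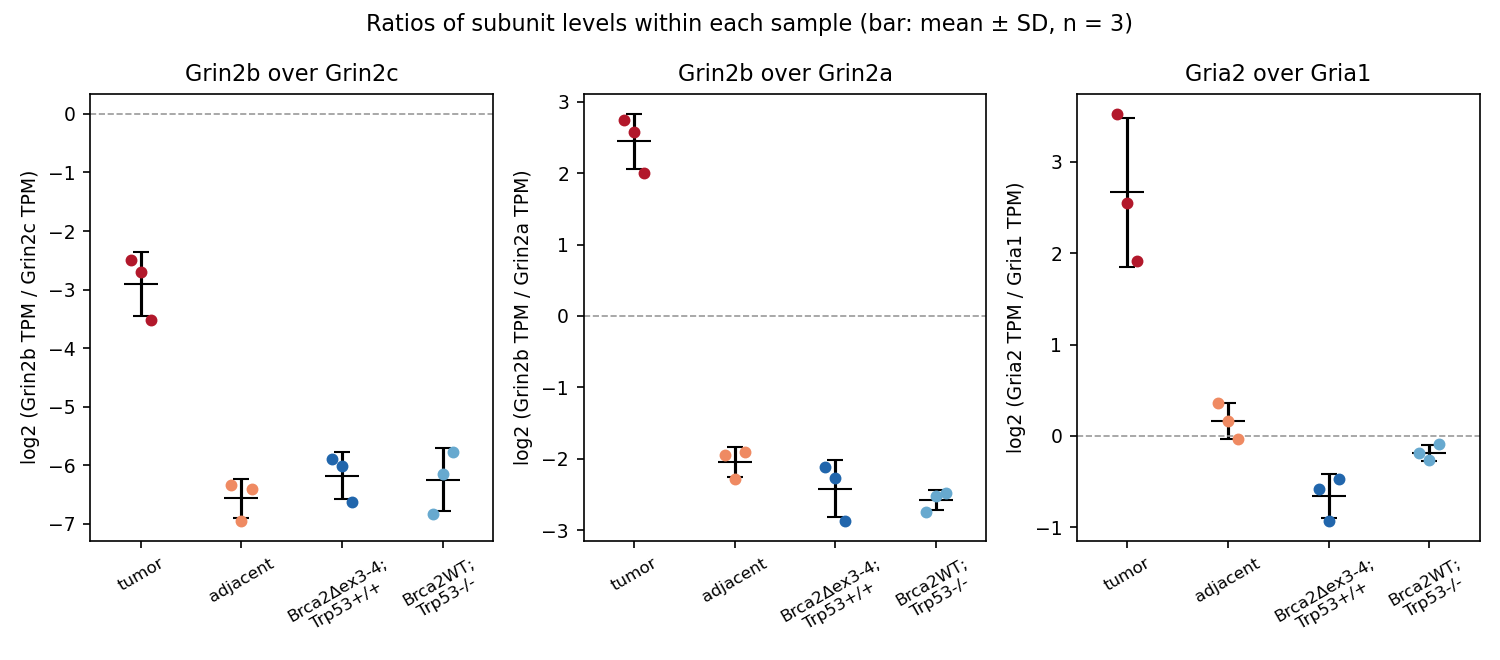
Log2 ratios of TPM within each sample for *Grin2b* over *Grin2c*, *Grin2b* over *Grin2a* and *Gria2* over *Gria1* (points, colored by group), with the mean and SD of each group (n = 3). The tumors lie above all other samples in each panel, and the ratio of *Grin2b* to *Grin2a* is above 0 only in them. *Grin2a* was at most 0.531 TPM in tumors.

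Summed over each family, the 6 *Grin* genes gave 35.0, 64.0 and 47.3 TPM in the tumors and between 456 and 639 in the controls, and the 4 *Gria* genes gave 138, 217 and 169 TPM against 714 to 834. The control mean was 11.1-fold the tumor mean for the NMDA genes and 4.49-fold for the AMPA genes. In order of mean TPM, tumors had *Gria2* (89.4), *Gria4* (51.7), *Grin1* (23.2), *Gria3* (18.8), *Grin2c* (15.6), *Gria1* (15.1), *Grin3a* (5.34), *Grin2b* (2.10), *Grin2d* (2.10) and *Grin2a* (0.381). From *Grin1* to *Gria1* each gene overlapped the next in its range over tumors, as did *Grin2b* and *Grin2d*. In both control groups and in adjacent cerebellum *Grin2b* was the lowest of the 10, and *Grin1* was among the highest 3.

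Markers of the cell types of the cerebellum differed widely between tumors and controls. In tumors 6 of 6 granule progenitor markers rose, with a sum of 990.1 to 1956 TPM against 33.2 to 58.0 in controls. Of the 8 granule neuron markers, 6 fell, and *Gabra6*, a GABA-A receptor subunit of mature granule neurons, read 8.11, 26.9 and 22.7 TPM in the tumors and 505 to 670.4 in the controls (log2 fold change -5.01). The 8 markers summed to 557 to 1246 TPM in tumors and 3008 to 3901 in controls. *Neurod1* (395 and 378 TPM on average) and *Pax6* (128 and 67.6) did not fall. With median of ratios scaling or quantile normalization, 1 granule neuron marker was called higher. The same count was called higher without the tumor of GB344, or with the libraries labelled *Brca2*Δex3-4; *Trp53*+/+ as the only controls. All 6 Purkinje cell markers fell, with a sum of 51.5 to 285 TPM against 4438 to 7550 and *Calb1* at 25.7 and 863 TPM on average. All 6 interneuron markers fell as well, with a sum of 90.7 to 188 TPM against 1812 to 2657 and *Gad1* at 16.7 and 454 on average. Of the 10 pan-neuronal genes, 6 fell, with *Snap25* at 176 and 2087 TPM on average, while *Tubb3* was 406 TPM in tumors and 321 in controls and did not pass the test. All 3 unipolar brush cell markers fell (*Eomes*, 2.52 and 21.8 TPM on average), 4 of 6 oligodendrocyte lineage markers fell and 2 rose (*Pdgfra*, 139 and 9.87), and 1 of 5 microglial markers rose (*Cx3cr1*, 11.3 and 9.61, did not pass). Of 3 endothelial markers 1 fell (*Cldn5*, 67.6 and 44.3, was not called), of 4 choroid plexus markers 0 were called (*Ttr*, 6.70 and 2285), and of the forebrain neuron markers both that passed the filter rose. The part of these differences in the subunit results was not tested.

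The tumors were next compared with the adjacent cerebellum of the same mice, a comparison that shares the tumor samples with the one above. The fit had no term for the mouse, and a fit with the mouse as a block is given below. Here 7 of the 10 genes fell and 0 rose, where 18.0% of the 15845 genes tested were called lower and 4.76% higher. For 9 of the 10 genes the tumors lay below all 3 adjacent samples, as they did for 38.9% of all genes. Scaling by the median of ratios turned the calls over all genes from 2852 lower and 755 higher into 2410 and 1441, and quantile normalization into 2196 and 1603, with 0 subunits higher in either. The mature NMDA subunits fell, with log2 fold changes of -3.93 for *Grin2c* (SE 0.30; limma adjusted p = 0.000216) and -3.07 for *Grin2a* (SE 0.19; adjusted p = 0.000186). *Grin1* (-3.66), *Gria1* (-3.53), *Gria4* (-1.88), *Grin2d* (-1.87) and *Gria2* (-1.12) also fell.

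**Figure D4:**
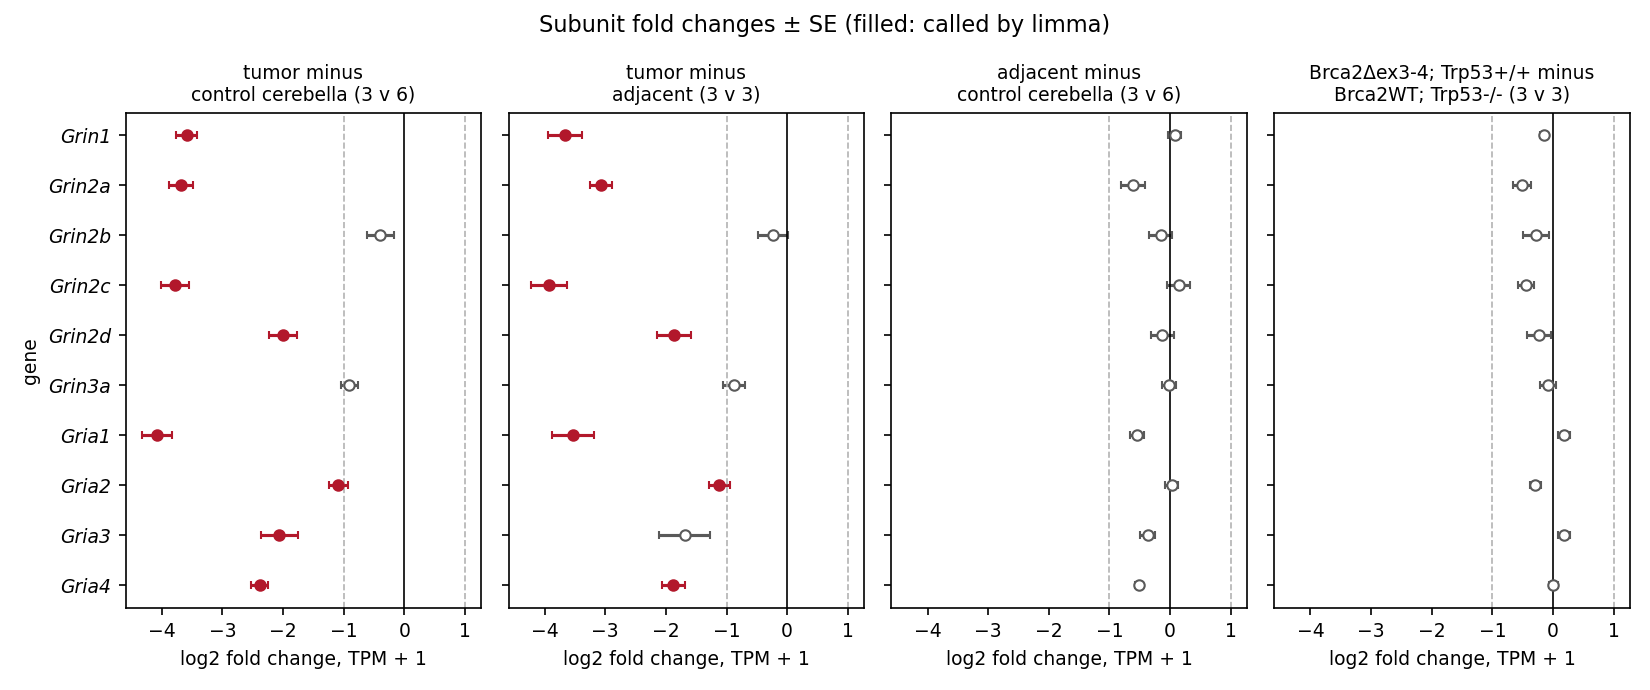
Log2 fold change on log2(TPM + 1) with its SE for each gene in 4 comparisons, with dashed lines at the fold change required for a call and filled points for called genes. In tumors 8 genes are called lower than in controls and 7 lower than in adjacent cerebellum, and 0 are called in the other panels.

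Within single mice the same genes were lower in tumor each time. *Grin2c* was 186 TPM in adjacent cerebellum and 9.33 in tumor of GB344, 289 and 20.7 in GB359, and 260.0 and 16.9 in GB370, which is 19.9-, 13.9- and 15.4-fold. *Grin2b* was 2.30 and 1.66 TPM in GB344, 2.34 and 3.18 in GB359, and 3.08 and 1.47 in GB370. It was thus higher in the tumor of GB359 and lower in the others, and its log2 fold change of -0.24 (SE 0.25; limma adjusted p = 0.454) did not pass the test. *Gria2* was 191 and 85.2 TPM in GB344, 189.6 and 112 in GB359, and 195 and 70.6 in GB370, with the 3 adjacent samples close together.

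The composition differed between tumor and adjacent cerebellum in every mouse. *Grin2b* and *Grin2d* together made up 34.0%, 19.0% and 13.5% of the GluN2 transcript in the tumors of GB344, GB359 and GB370, and between 3.68% and 5.42% in the adjacent samples. *Gria2* made up 31.5% ± 2.17 (SD, n = 3) of the AMPA receptor transcript in the adjacent samples, above every control and below every tumor. The log2 ratio of *Grin2b* to *Grin2a* was -2.05 ± 0.20 (SD, n = 3) in the adjacent samples, on the same side of 0 as in the controls.

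*Gria3* did not pass the test against adjacent cerebellum, at a log2 fold change of -1.69 (SE 0.43; limma adjusted p = 0.0156), although its 3 tumors (7.67, 24.4 and 24.3 TPM) lay below its 3 adjacent samples (48.0, 54.4 and 68.5). With the mouse as a block the adjusted p was 0.00846 and 8 genes were called, and without the tumor of GB344 it was 0.00391 at a fold change of -1.18. *Grin3a* was 11.4, 9.94 and 10.6 TPM in the adjacent samples, with a log2 fold change of -0.88 and an adjusted p of 0.00767, short of the required fold change, which it reached with a pseudocount of 0.01 (-1.003). *Gria2* was under the fold limit with median of ratios scaling (-0.91) and quantile normalization (-0.96). Leaving out the adjacent cerebellum of GB359 took it past the p limit (adjusted p = 0.0124), and leaving out the tumor of GB370 put it under the fold limit (-0.96).

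The adjacent cerebella were compared with the controls to see whether tissue beside a tumor differed. The adjacent samples carry both mutations, whereas the controls carry either the *Brca2* or the *Trp53* mutation. Genotype and a nearby tumor therefore cannot be told apart here, and tumors differ from controls in genotype in the same way. No gene of the 10 was called by limma, where 0.0124% of the 16091 genes tested were called lower and 0.224% higher, and 4 of the 10 had an unadjusted p under 0.05, as did 34.5% of all genes. Among the NMDA genes other than *Grin2a*, the log2 fold changes were 0.07 for *Grin1* (SE 0.11), 0.14 for *Grin2c* (SE 0.19), -0.12 for *Grin2d* (SE 0.18), -0.16 for *Grin2b* (SE 0.19) and -0.02 for *Grin3a* (SE 0.11). The estimates of *Grin1* and *Grin3a* changed sign in several alternative fits, as did that of *Gria2* (0.03, SE 0.11).

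The AMPA subunit genes used by Bergmann glia were not called either. *Gria4* read 177, 191 and 198 TPM in the adjacent samples and 248 to 291 in the controls, and *Gria1* read 149, 169 and 200.3 TPM against 222 to 295. Neither gene overlapped between the groups, as was the case for the lower side of 7.64% of all genes tested. The log2 fold changes were -0.51 for *Gria4* (SE 0.07; limma adjusted p = 0.00883) and -0.55 for *Gria1* (SE 0.12; adjusted p = 0.0197), both under the fold change required for a call. They were the 2 of 10 genes that were lower at an adjusted p under 0.05, where 5.57% of all genes were. For *Gria1* the adjusted p was 0.0844 without the adjacent cerebellum of GB344 and 0.152 with all 4 groups in 1 fit, and it was also above 0.05 without the adjacent cerebellum of GB359 or with either control group alone. For *Gria4* it was at most 0.0531, with the libraries labelled *Brca2*WT; *Trp53*-/- as the only controls. *Grin2a*, at 8.91, 11.4 and 11.5 TPM against 11.7 to 23.0, did not overlap either (log2 fold change -0.61, adjusted p = 0.0564).

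Several marker sums stood beside these values. The glial markers, Bergmann glia included, summed to 1636 to 1832 TPM in the adjacent samples and 1992 to 2510 in the controls, while *Gfap* alone averaged 271 and 156 TPM. The granule progenitor markers summed to 77.7 to 585 TPM in the adjacent samples. Purkinje cell markers averaged 4217 TPM in the adjacent samples and 5727 in the controls, interneuron markers 1651 and 2173, and oligodendrocyte lineage markers 2218 and 3677. The Purkinje cell, interneuron and oligodendrocyte lineage sums overlapped between the groups, and the glial and granule progenitor sums did not. Microglial (62.1 and 50.8) and endothelial (95.4 and 84.9) markers were higher on average in the adjacent samples. Of the 3 adjacent samples, that of GB370 held the least *Atoh1* and the most *Gria4* and *Gria1*, and whether these go together was not tested. The part of any of these lists in the *Gria* values was not tested.

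The control groups were compared with each other, since they carry different alleles. No gene of the 10 was called by limma, where 0.0449% of the 15575 genes tested were called lower and 0.0128% higher in the libraries labelled *Brca2*Δex3-4; *Trp53*+/+. *Grin2c* read 205, 156 and 203 TPM in those libraries and 279, 261 and 225 in those labelled *Brca2*WT; *Trp53*-/-, and *Grin2a* read 15.0, 11.7 and 15.0 against 16.4, 21.2 and 23.0. Both genes were lower without overlap in the first group, as were *Gria2* and *Grin1*, 4 of 10 genes where 20.3% of all genes tested did the same. Their log2 fold changes were -0.45 for *Grin2c* (SE 0.12; limma adjusted p = 0.128) and -0.50 for *Grin2a* (SE 0.15; adjusted p = 0.143), and *Grin2c*, *Grin2a* and *Gria2* had an unadjusted p under 0.05, 3 of 10 genes against 20.1% of all genes. Some marker sums also separated these control groups: those of Purkinje cells gave 6113 to 7550 TPM in the first group and 4438 to 4839 in the second, interneuron markers 2242 to 2657 and 1812 to 2029, and glial markers 2099 to 2510 and 1992 to 2086. The sums of granule neuron markers overlapped, at 3008 to 3514 and 3453 to 3901 TPM, as did those of oligodendrocyte lineage and unipolar brush cell markers. Choroid plexus markers were lower in the first group, as given above. The part of these differences in the subunit values was not tested.

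Transcripts of proteins that assemble with these subunits were examined next. Of 13 AMPA receptor auxiliary subunit genes, 7 fell, 1 rose and 5 were not called against controls. *Shisa6*, which slows desensitization of synaptic receptors, averaged 3.15 ± 2.15 TPM in tumors (SD, n = 3) and 79.2 ± 14.9 in controls (SD, n = 6), a log2 fold change of -4.42 (SE 0.33; limma adjusted p = 6.68e-07). *Syndig1*, a regulator of excitatory synapse development, fell by 4.33 on the log2 scale. *Gsg1l*, an auxiliary subunit that slows the recovery of AMPA receptors from desensitization, rose from 12.9 ± 1.25 TPM to 105 ± 33.0 (log2 fold change 2.87, SE 0.18; adjusted p = 2.48e-07). *Cacng2*, the stargazin gene that brings AMPA receptors to the granule neuron surface, read 34.9, 88.7 and 92.7 TPM in tumors and 107 to 151 in controls and did not pass the test (log2 fold change -0.86, adjusted p = 0.0157).

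Of 22 postsynaptic scaffold and signaling genes, 13 fell and 2 rose, with a median log2 fold change of -1.90. *Shank1* (-4.33) and *Camk2a* (-4.14), a scaffold and a kinase of the postsynaptic density, fell most. *Dlg4*, which encodes the NMDA receptor scaffold PSD-95, read 43.8, 69.3 and 66.6 TPM in tumors and 216 to 241 in controls, with no overlap, and fell by 1.95 (SE 0.13; limma adjusted p = 3.45e-07). The 2 genes that rose were *Lrrc7*, which encodes densin (1.06 to 9.69 TPM on average, log2 fold change 2.32), and *Homer2*, a scaffold of metabotropic receptors (7.01 to 21.01 TPM, log2 fold change 1.45).

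Other glutamate receptor genes were also mostly lower. Of 7 metabotropic receptor genes, 6 fell, among them *Grm4* (log2 fold change -4.49), the presynaptic receptor of parallel fibers, while *Grm5* was 4.21 TPM in tumors and 6.08 in controls on average and did not pass the test. Of a list of 8 genes, 7 of kainate and delta receptors and the NMDA receptor gene *Grin3b*, 5 fell, among them *Grik1* (-2.40). *Grin3b*, which encodes GluN3B, averaged 5.84 TPM in tumors and 3.60 in controls and was not called (log2 fold change 0.57, adjusted p = 0.0194 by limma). The kainate receptor genes *Grik2* (36.4 and 43.5 TPM) and *Grik5* (59.1 and 57.7 TPM) did not pass the test. *Neto2*, a kainate receptor auxiliary subunit, fell by 1.11, a call lost under either alternative scaling and without the tumor of GB344 or of GB370, and *Neto1* did not pass the test (-0.31).

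**Figure D5:**
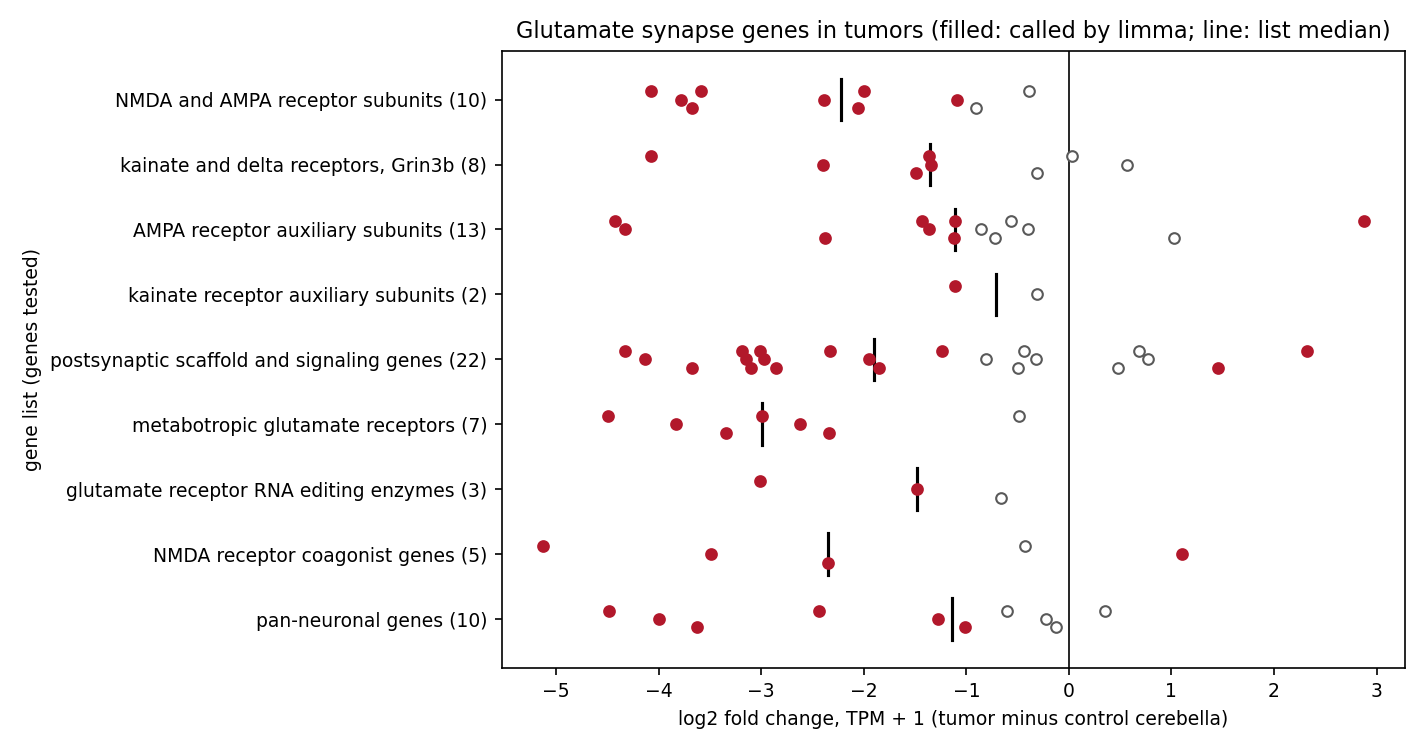
Log2 fold change on log2(TPM + 1), tumor minus control cerebella, for each gene of 9 lists, with filled points for called genes and a line at each list median. The subunit list has a median of -2.22, and *Gsg1l*, at 2.87, lies farthest to the right.

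*Adarb1*, the enzyme that edits the *Gria2* codon shown above, read 19.5, 21.6 and 17.1 TPM in tumors and 159 to 171 in controls. The 3 tumors were close to each other and far below the controls, and the gene fell by 3.01 on the log2 scale (SE 0.08; limma adjusted p = 5.58e-09). *Adarb2*, a gene of the same family, fell by 1.48. Only 1 of the 3 family genes was called without the tumor of GB344, or with the libraries labelled *Brca2*Δex3-4; *Trp53*+/+ as the only controls. *Adar* was 46.9 TPM in tumors and 74.9 in controls on average, under the fold change required. Of 5 genes for NMDA receptor coagonists, *Dao*, which degrades D-serine (-5.13), *Slc7a10*, a D-serine and neutral amino acid transporter of astrocytes (-3.49), and *Slc6a9*, the glial glycine transporter (-2.35), fell, the serine racemase gene *Srr* did not pass the test (-0.42), and the neutral amino acid transporter gene *Slc1a4* rose (1.10), a call lost without the tumor of GB359 and with those same libraries as the only controls.

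Against adjacent cerebellum, 4 of 13 auxiliary AMPA receptor subunits, 12 of 22 scaffold and signaling genes and 6 of 7 metabotropic receptors were called lower. So were 4 of the 8 genes of kainate and delta receptors and *Grin3b*, 1 of 3 genes of the *Adarb1* family and 3 of 5 coagonist genes. In each of these lists 0 genes were called higher. The count of kainate and delta genes was 2 with quantile normalization, and 1 or 2 without the tumor of GB359 or the adjacent cerebellum of GB359 or GB370. With either alternative scaling or all 4 groups in 1 fit, 1 scaffold gene was called higher. *Gsg1l* averaged 34.1 ± 19.6 TPM in the adjacent samples (SD, n = 3) and did not pass the test there (log2 fold change 1.76, limma adjusted p = 0.0308). *Adarb1* averaged 154 ± 27.9 TPM in the adjacent samples, and its log2 fold change of -2.92 (SE 0.17; adjusted p = 0.000186) was called.

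The genes with the pattern most like 3 of the subunits were found over the 12 samples, by the smallest root mean square difference of log2(TPM + 1) centered on each gene's mean, among 16003 genes with a mean of at least 1 TPM. For *Grin2c* they were *Kcnt1* (0.173), *Prrt2* (0.188) and *Atp2b3* (0.188), which averaged 13.4, 39.7 and 11.8 TPM in tumors and 181, 428 and 179.6 in controls. For *Gria2* they were *Adgrl1* (0.0943), *Ate1* (0.0944) and *Phc3* (0.0998). For *Grin2b* they were *Glrx2* (0.152), *AI197445* (0.160) and *Fpgt* (0.160), which averaged 23.4, 0.779 and 8.82 TPM in tumors and 31.2, 1.21 and 13.5 in controls. *Grin2b* was not called in any comparison above, so genes that also changed little can come near it. A small difference in this measure does not show that genes are regulated together.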

How the data were processed

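Poly(A) RNA of 12 mouse samples was sequenced. The deposited values are TPM for 24091 genes, which the authors made by running Salmon 0.8.1 on mm10 known genes and summing to genes with tximport. Each sample sums to between 999793 and 999876. Read depth is unknown, so precision rests on the spread between mice. Genes reaching 1 TPM in 3 or more of the samples compared entered a test on log2(TPM + 1) with limma 3.58.1 (lmFit, eBayes with trend) in R 4.3.3, using only the groups compared and Benjamini-Hochberg adjustment over all genes tested. Calls needed an adjusted p below 0.01 together with a log2 difference of 1 or more in either direction. The authors' count test was not repeated. The script was tested on simulated data.

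The members and lists were chosen with earlier results of these data known. All 10 subunits are named, with the 2 called genes of largest change in each direction of each partner list, 4 direct partners (*Gabra6*, *Cacng2*, *Dlg4* and *Adarb1*) and the first gene of each cell type list, of which some are not reported here. *Tubb3*, *Neurod1*, *Pax6*, *Grm5*, *Grik2*, *Grik5*, *Neto1*, *Grin3b*, *Adar*, *Slc6a9*, *Srr* and *Grin1os* were named after their values were seen. Control ages come from the study's supplement. Tumor and adjacent samples are paired by mouse, which the main fit did not use. Their deviations from the group mean correlated at 0.249, 0.176 and 0.152 within mice, and between -0.163 and 0.018 across mice. The reading frame of each printed window was the longest in GENCODE M21 transcripts, and gene positions are those of RefSeq (GRCm38.p6). Alternatives changed the pseudocount, filter, scaling, trend, samples in the fit, threshold, control group or mouse block, or left out each sample.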

Additional observations from a re-analysis of the deposited data

Results flagged for a closer look

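Among 23 series of member levels and shares over the 6 controls, 2 had a sample far from the others. In the library of GB508, labelled *Brca2*Δex3-4; *Trp53*+/+, *Grin2d* made up 7.07% of the GluN2 transcript, where the other 5 controls lay between 3.20% and 4.56%. The share of *Grin2b* and *Grin2d* together was 8.39% there and between 4.65% and 5.96% in the others. Both rest on the same 12.9 TPM of *Grin2d* and the lowest *Grin2c* of the controls, 156 TPM, and chance flags about 1 in 20 such series.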

How the results depend on the processing

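Tumors had 7 to 9 of the 10 subunits called lower than controls over 20 alternatives, and 6 to 9 lower than adjacent cerebellum over 16, with 0 called higher throughout. The fit with the mouse as a replicate block called 8 in place of 7, through *Gria3*, and changed no other call. The count against adjacent cerebellum was 8 without the tumor of GB344 and 6 without the tumor of GB370 or the adjacent cerebellum of GB359, and also 6 with median of ratios scaling (*Gria2*, -0.91) or quantile normalization (-0.96). In adjacent cerebellum against controls, an adjusted p under 0.05 with no fold minimum called 2 lower, in place of 0. *Grin3a* passed the fold limit in tumors against controls with a pseudocount of 0.1 (-1.01) or 0.01 (-1.03), and against adjacent cerebellum with 0.01 (-1.003). The all-gene median moved from -0.11 to -0.01 (median of ratios) and 0.04 (quantile normalization) in tumors against controls, and from -0.14 to 0.05 and 0.13 against adjacent cerebellum. Calls over all genes ran from 2019 to 5165 higher (2341 as reported) and 3040 to 6408 lower (3489) in tumors against controls, from 189 to 2870 higher (755) and 2167 to 5110 lower (2852) against adjacent cerebellum, from 0 to 1627 higher (36) and 0 to 897 lower (2) in adjacent against control cerebella, and from 2 to 6 higher (2) and 0 to 65 lower (7) between the control groups.

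Directions that turned were all of values that had not passed the test. Against adjacent cerebellum, *Grin2b* was 0.11 with quantile normalization. In adjacent against control cerebella, median of ratios scaling gave -0.023 for *Grin1* and -0.066 for *Gria2*. With the *Trp53*-/- libraries as the only controls, *Grin1* was -5.65e-05, *Grin2c* -0.078 and *Gria2* -0.11, and with the *Brca2*Δex3-4 libraries *Grin3a* was 0.022. Leaving out a sample gave *Grin1* from -0.078 to 0.20, *Gria2* from -0.025 to 0.079 and *Grin3a* from -0.067 to 0.022. Between the control groups, *Grin3a* was 0.019 with median of ratios scaling and 0.021 with quantile normalization, and *Gria4* ran from -0.037 to 0.069 when a sample was left out. The causes were not tested.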
